A study of Mus musculus with 16 samples.

Results

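The rows named Zmynd15 and Art3 in the count tables lie on the strand opposite the chemokine genes Cxcl16 and Cxcl10, and they are described here together with the rows of these chemokine genes, 4 rows of the 47517 in the tables. The rows were picked for their measured difference between genotypes, so their levels in the 2 genotypes are given as a description without a test. The tests below concern loading, and the difference in loading effect is only partly independent of that choice, because it is also the difference between the genotype contrasts of the 2 limbs. In 16 libraries of cortical bone, the Zmynd15 row held 38 to 75 fragments in Ctrl limbs and 126 to 250 in NT3 limbs, and the Art3 row 2 to 19 and 27 to 52. The Cxcl16 row held 7 to 25 fragments with the genotypes overlapping, and the Cxcl10 row 0 to 5. No loading effect on these rows passed the adjusted threshold of 0.05, in 3 rows tested with edgeR.

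RNA was taken from the tibial cortex of 8 male mice at 16 weeks of age. The labels call 4 of them Ctrl and the other 4 NT3-Cre+ (NT3 here), in a study of NF-kB inducing kinase (NIK, the product of Map3k14) activated in the osteolineage. In every mouse the right tibia was compressed along its axis on 9 days, with 1200 cycles per day at 4 Hz and the left one served as its non-loaded control, so that side and loading cannot be told apart. The force peaked at 8.7 N for Ctrl mice and at 10.0 N for NT3 mice, both set to reach -2000 microstrain, and bones were collected 4 h after the last bout, with muscle removed and marrow spun out. Which allele NT3 stands for, what drives Cre and what the Ctrl mice carry is not given in the sources used here. The 4 groups are thus non-loaded Ctrl, loaded Ctrl, non-loaded NT3 and loaded NT3, each of the same 4 mice per genotype, numbered 1 to 4 within a genotype.

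Libraries held 758394 to 1064391 counted fragments. The row of Map3k14, the gene of NIK, held 1 to 9 fragments, which gives no check of the labels. The Col1a1 row, for the main bone collagen, held 34 to 430 fragments and the osteocyte row Dmp1 45 to 161, whereas the osteoblast row Bglap held 0 to 4 and the housekeeping row Actb 11 to 33. The strand setting of the counting is not given in the sources used here, so the fragments of a row and those of the gene opposite cannot be told apart, and a row need not measure the gene that gives it its name. In bulk bone, fewer cells of a type and less RNA per cell cannot be told apart either.

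Chemokines are small secreted proteins that steer leukocytes through G protein-coupled receptors. CXCL16 is made as a membrane-bound protein with a chemokine head, is released by the proteases ADAM10 and ADAM17, and binds CXCR6. CXCL10 is induced by interferons and NF-kB and binds CXCR3, found above all on activated T cells and natural killer cells. NIK drives the noncanonical NF-kB pathway, in which the NFKB2 precursor is processed to its active form and pairs with RELB. Zmynd15 encodes a zinc finger protein known from male germ cells, and Art3 a member of the ADP-ribosyltransferase family.

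Zmynd15 and Cxcl16 are head to head on chromosome 11 of GRCm38. Zmynd15 runs from 70459433 to 70466202 on the plus strand and Cxcl16 from 70453983 to 70459984 on the minus strand, per GENCODE M21. Their first exons share 552 bases, from 70459433 to 70459984, which is 12.5% of the Zmynd15 exons and 18.3% of the Cxcl16 exons. The shared bases include no Zmynd15 coding sequence and 15 coding bases of Cxcl16, and 3 of 6 Zmynd15 transcripts reach into them.

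Art3 and Cxcl10 are arranged otherwise. Art3 spans 92331827 to 92414628 on the plus strand of chromosome 5, and the whole of Cxcl10, 92346638 to 92348889 on the minus strand, lies inside it. The exons share 133 bases, from 92346638 to 92346770, at the 3′ end of Cxcl10, which is 3.38% of the Art3 exons and 5.91% of the Cxcl10 exons. These bases are noncoding on both strands and belong to 1 of 19 Art3 transcripts, Art3-214. The exon lengths in the tables, 4409 bases for Zmynd15, 3021 for Cxcl16, 3932 for Art3 and 2252 for Cxcl10, equal the merged exon lengths of M21, so the exon of Art3-214 entered the length of the Art3 row.

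**Figure D1:**
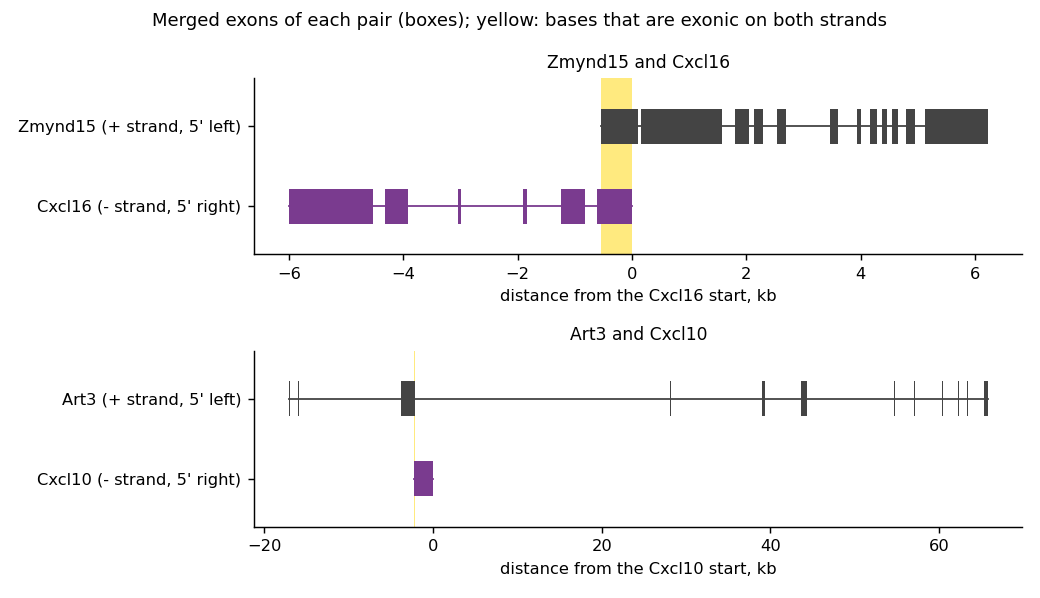
Merged exons of Zmynd15 with Cxcl16 and of Art3 with Cxcl10, plotted as boxes against distance in kb from the start of the chemokine gene, with bases that are exonic on both strands in yellow. The shared stretch is 552 bases at the 5′ ends in the upper pair and 133 bases at the 3′ end of Cxcl10 in the lower pair.

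The 250 bases before the Cxcl10 start and before the first Art3 start are shown because these genes overlap while their rows differed in level, with capitals marking the motifs searched. They come from RefSeq (GRCm38.p6), 5′ to 3′ on the strand of the gene, for Cxcl10 at chr5:92348890-92349139 (minus strand) and for Art3 at chr5:92331577-92331826 (plus strand).
Cxcl10: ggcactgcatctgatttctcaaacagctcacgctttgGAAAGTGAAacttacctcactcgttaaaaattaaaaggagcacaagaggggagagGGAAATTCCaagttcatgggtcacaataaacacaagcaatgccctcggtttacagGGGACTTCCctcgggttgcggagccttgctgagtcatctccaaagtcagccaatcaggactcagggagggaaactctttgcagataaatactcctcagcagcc
Art3: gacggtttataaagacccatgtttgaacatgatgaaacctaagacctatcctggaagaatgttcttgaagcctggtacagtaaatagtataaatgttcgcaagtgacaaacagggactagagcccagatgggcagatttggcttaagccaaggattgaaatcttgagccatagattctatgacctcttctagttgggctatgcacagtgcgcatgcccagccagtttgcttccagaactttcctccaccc
The letters GGNNNTTCC are a form of the kappa-B element that NF-kB binds. They occurred in the Cxcl10 window at 158 to 150 bases before the start, where the pattern matched on both strands. They also occurred at 103 to 95 bases before it. GAAANNGAA, the core of an interferon response element, occurred at 213 to 205 bases before the start. N stands for any base, both strands were searched, and matches of the different motifs did not overlap. Of 32851 promoter windows of this length, 15.7% held the first motif and 7.13% the second. Neither motif occurred in the Art3 window shown, and of the windows before its other 2 starts 1 held the second motif. A match describes letters, not binding. Of the 4 genes, 2 had an entry in the promoter table.

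Zmynd15 held 53, 40, 58 and 54 fragments in the non-loaded limbs of Ctrl mice 1 to 4, and 47, 53, 38 and 75 in their loaded limbs. In NT3 mice 1 to 4 it held 207, 135, 209 and 126 fragments in non-loaded limbs and 250, 148, 141 and 181 in loaded limbs. Every NT3 limb was above every Ctrl limb. Scaled by trimmed mean of M values (TMM) to counts per 1e+06 fragments (CPM), the group levels were 56.6 ± 7.50 in non-loaded Ctrl, 60.7 ± 16.2 in loaded Ctrl, 195 ± 63.2 in non-loaded NT3 and 229 ± 39.2 in loaded NT3 (mean ± SD, n = 4). The fitted NT3 to Ctrl difference was a log2 fold change of 1.77 (SE 0.21) in non-loaded limbs and 1.91 (SE 0.18) in loaded limbs. The lowest NT3 limb was 2.15 times the highest Ctrl limb without loading and 2.19 times with it.

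Art3 held 10, 19, 11 and 10 fragments in the non-loaded limbs of Ctrl mice 1 to 4, and 12, 6, 2 and 4 in their loaded limbs. In NT3 mice 1 to 4 the counts were 42, 32, 37 and 35 without loading and 34, 31, 52 and 27 with it. The genotypes did not overlap in either limb. The levels were 14.0 ± 5.52 CPM in non-loaded Ctrl, 6.84 ± 5.16 in loaded Ctrl, 41.7 ± 5.85 in non-loaded NT3 and 46.6 ± 14.9 in loaded NT3 (mean ± SD, n = 4). The fitted log2 fold change between genotypes was 1.56 (SE 0.31) without loading and 2.73 (SE 0.40) with it, and the lowest NT3 limb was 1.63 and 2.56 times the highest Ctrl limb. Over all rows tested, every NT3 limb was above every Ctrl limb in 2.19% of rows in non-loaded and 3.93% in loaded limbs. Since both rows were chosen on this contrast, nothing is read from their place beside that share.

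The Cxcl16 row behaved differently. Its fragments in mice 1 to 4 were 19, 11, 17 and 17 in non-loaded Ctrl and 21, 25, 15 and 13 in loaded Ctrl limbs. In NT3 mice they were 7, 13, 18 and 17 without loading and 23, 23, 18 and 13 with it. The genotypes overlapped in both limbs, at 17.7 ± 3.90, 21.01 ± 4.89, 15.9 ± 6.55 and 24.7 ± 5.72 CPM (mean ± SD, n = 4) in the order non-loaded Ctrl, loaded Ctrl, non-loaded NT3 and loaded NT3. The fitted genotype log2 fold change was -0.18 (SE 0.37) without loading and 0.23 (SE 0.33) with it.

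The Cxcl10 row was at the limit of counting. It held 5, 2, 0 and 0 fragments in non-loaded Ctrl mice 1 to 4, 1 fragment in the loaded limb of Ctrl mouse 3, 2 and 1 in the non-loaded limbs of NT3 mice 2 and 4, and 0 in all loaded NT3 limbs. It passed the filter on low counts in none of the fits, so 3 of the 4 rows were tested. A count of 0 allows an expected count of up to 3 fragments, or 2.96 to 4.21 CPM depending on the library, so a 0 does not show that the RNA was absent.

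**Figure D2:**
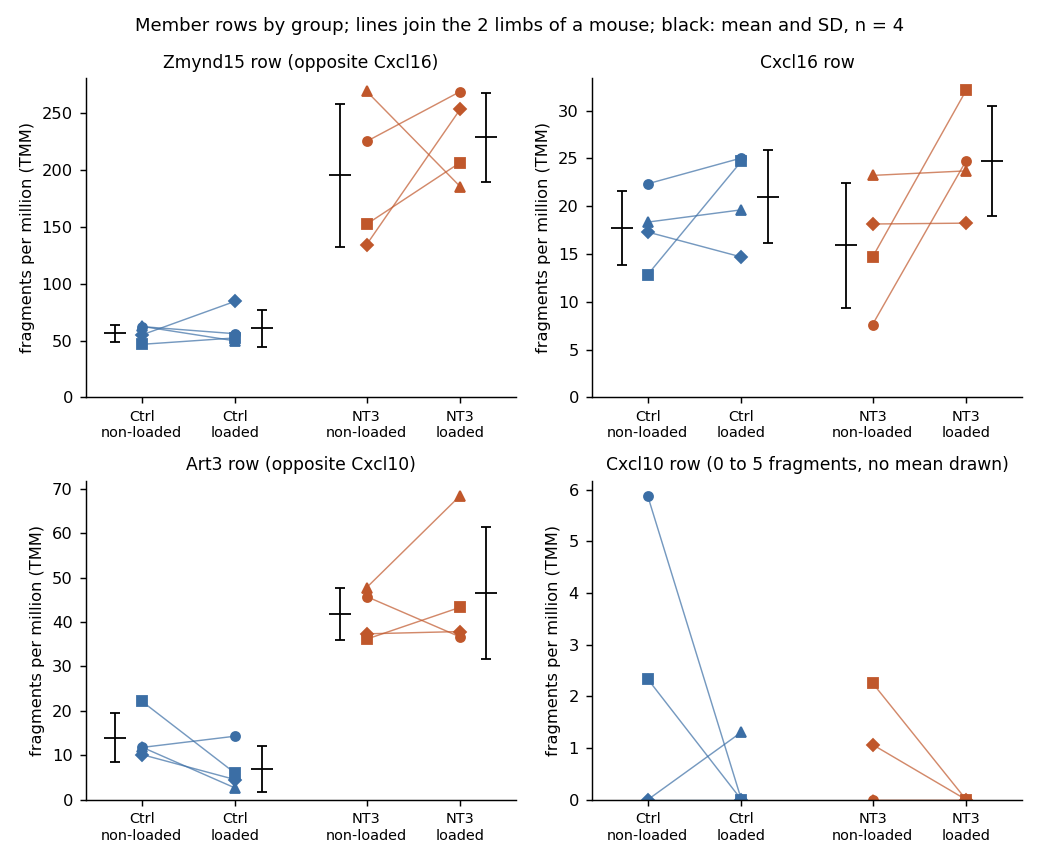
TMM-scaled CPM of the Zmynd15, Cxcl16, Art3 and Cxcl10 rows in the 4 groups, where each coloured line joins the limbs of a mouse (circle, square, triangle and diamond for mice 1 to 4) and black bars give mean ± SD of 4 mice. Zmynd15 and Art3 separate the genotypes in both limbs, Cxcl16 does not, and Cxcl10 holds 0 to 5 fragments.

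Per kb of exon, the 4 rows can be set against each other. In non-loaded Ctrl limbs the Zmynd15 row averaged 12.8 CPM per kb, above Cxcl16 at 5.86 and Art3 at 3.56, with Cxcl10 at 0.912. In loaded NT3 limbs these levels were 51.9 for Zmynd15, 11.8 for Art3, 8.18 for Cxcl16 and 0 for Cxcl10. Across the 4 groups, the order of the Zmynd15 level was non-loaded Ctrl, loaded Ctrl, non-loaded NT3, loaded NT3, and neighbours within a genotype overlapped while loaded Ctrl and non-loaded NT3 did not. For Art3 the order began with loaded Ctrl, and again only the step between the genotypes was free of overlap.

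Of the fragments in the Zmynd15 and Cxcl16 rows together, Zmynd15 took 76.2% in non-loaded Ctrl, 74.2% in loaded Ctrl, 92.5% in non-loaded NT3 and 90.3% in loaded NT3 limbs. The share ran from 67.9% to 85.2% in single Ctrl limbs and from 86.5% to 96.7% in single NT3 limbs. Of the fragments in the Art3 and Cxcl10 rows, Art3 took 87.7%, 96.0%, 98.0% and 100% in the same order of groups. With the rows of a pair added, the genotypes did not overlap in either limb. The mean CPM of Zmynd15 with Cxcl16 was 74.3 in Ctrl and 211 in NT3 without loading, and 81.7 and 254 with it. For Art3 with Cxcl10 these means were 16.1 and 42.6 without loading, and 7.17 and 46.6 with it. Shares and sums hold the counts on which Zmynd15 and Art3 were chosen, so nothing is read from their separation of the genotypes.

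Whether loading changed these rows was tested with the limbs paired by mouse. In Ctrl mice, none of the 3 tested rows was called at an adjusted p under 0.05, against 4.07% of all rows tested. In NT3 mice none of the 3 was called, against 0.417% of all rows, and for the difference between these loading effects none was called, against 0.139%. Before adjustment, Art3 alone was under 0.05 in Ctrl and in the difference, 1 row each, and 0 rows were in NT3. Of all 7192 rows tested, 1061 had an edgeR p under 0.05 before adjustment in Ctrl, 546 in NT3 and 472 for the difference. DESeq2 called 0 of the 3 in any of these comparisons, with an NA adjusted p for 2 of them in NT3 and in the difference. With so low a share over all rows, a count of 0 among 3 rows says little, and the sizes are given below with their intervals.

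Zmynd15 was higher in the loaded limb in 2 of 4 Ctrl and 3 of 4 NT3 mice. The ratio of loaded to non-loaded limb in log2(CPM + 1), in mice 1 to 4, was -0.15, 0.16, -0.33 and 0.62 in Ctrl and 0.26, 0.44, -0.54 and 0.91 in NT3. The edgeR quasi-likelihood estimate for Ctrl was a log2 fold change of 0.09 (SE 0.21, 95% interval -0.32 to 0.51, adjusted p = 0.893). For NT3 it was 0.26 (SE 0.17, interval -0.08 to 0.61, adjusted p = 0.810). The difference of the loading effects was 0.17 (SE 0.27, interval -0.37 to 0.71, edgeR adjusted p = 0.964), and the exact permutation test of the 4 NT3 against the 4 Ctrl ratios gave 0.19 with p = 0.6. The intervals leave room for a change of up to 1.43-fold in Ctrl and 1.52-fold in NT3 limbs. Without Ctrl mouse 4 the estimate for Ctrl was -0.090, and without NT3 mouse 4 the difference was -0.067, so the sign of these uncalled values rested on single mice.

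Art3 was lower in the loaded limb in 3 of 4 Ctrl mice and higher in 3 of 4 NT3 mice. The per-mouse log2 ratios were 0.26, -1.74, -1.83 and -1.02 in Ctrl mice 1 to 4 and -0.31, 0.26, 0.51 and 0.02 in NT3 mice. The edgeR estimate for Ctrl was -1.07 (SE 0.42, 95% interval -1.91 to -0.23, adjusted p = 0.177), and its p before adjustment was 0.0138. The NT3 estimate was 0.12 (SE 0.28, interval -0.45 to 0.70, adjusted p = 0.975). The difference was 1.19 (SE 0.50, interval 0.18 to 2.21), with an edgeR p of 0.0224 before and 0.667 after adjustment over all rows.

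The Art3 value in Ctrl turned on single mice. Ctrl mouse 1 was the only Ctrl mouse with a higher loaded limb, and without it the estimate was -1.71 with an edgeR adjusted p = 0.0397, the sole alternative among those run in which the row was called. Without Ctrl mouse 2, which had the highest non-loaded value, it was -0.72 with an adjusted p = 0.627, and over all alternatives the adjusted p ran between these values. The exact permutation test of the difference gave 1.20 with p = 0.114, where the smallest p that 4 against 4 mice can give is 0.0286. Adding the Cxcl10 row to Art3, which raised the non-loaded limb of Ctrl mouse 1 from 11.8 to 17.6 CPM, above its loaded limb at 14.3 CPM, gave 1.23 with an exact permutation p = 0.0571. Peak force differed between the genotypes, so its part in any difference of loading effects cannot be told apart from that of the genotype.

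The Cxcl16 row was higher in the loaded limb in 3 of 4 Ctrl mice and 4 of 4 NT3 mice. In NT3 mice 3 and 4, however, the ratio, taken on CPM + 1, was close to 1, at 1.02 and 1.00. NT3 mice 1 and 2 had ratios of CPM + 1 of 2.99 and 2.11, with 7 and 13 fragments in the non-loaded limb. The edgeR log2 fold change was 0.24 (SE 0.35, 95% interval -0.46 to 0.95, adjusted p = 0.822) in Ctrl and 0.67 (SE 0.36, interval -0.05 to 1.39, adjusted p = 0.716) in NT3. The difference was 0.43 (SE 0.50, interval -0.58 to 1.44, edgeR adjusted p = 0.952). Leaving out single mice moved these values to between 0.015 and 0.41, 0.39 and 0.91, and 0.15 and 0.67.

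**Figure D3:**
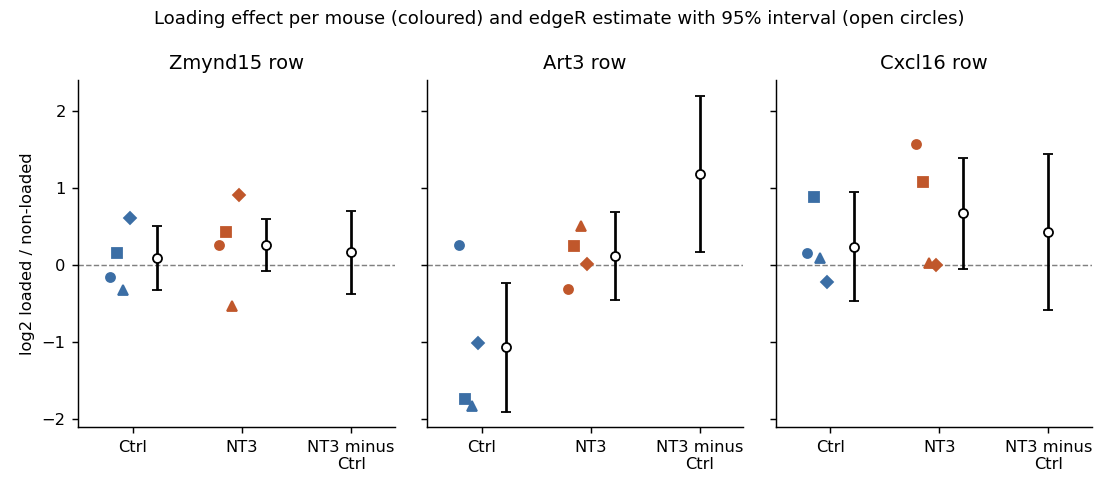
Log2 ratio of loaded to non-loaded limb for the Zmynd15, Art3 and Cxcl16 rows, with coloured points for single mice (log2(CPM + 1); circle, square, triangle and diamond for mice 1 to 4) and open circles with bars for the edgeR estimate and its 95% interval. The Art3 points of Ctrl mice run from -1.83 to 0.26, and none of the estimates passed the adjusted threshold.

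Mice within a group varied to different degrees. The coefficient of variation of the Zmynd15 level was 13.2% in non-loaded Ctrl, where counting alone gives 14.0% at the mean number of fragments, and 32.3% in non-loaded NT3, where counting gives 7.69%. In loaded NT3 it was 17.1% against 7.45% from counting. NT3 mouse 3 had the highest Zmynd15 level without loading, 270 CPM, and the lowest with loading, 186 CPM. Averaged over both limbs, the NT3 mice ran from 180 to 247 CPM and the Ctrl mice from 49.5 to 69.8 CPM, a coefficient of variation of 14.6% and 14.4%.

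For Art3 the spread was widest in loaded Ctrl limbs, 75.4% against 40.8% from counting, and narrowest in non-loaded NT3 limbs, 14.0% against 16.6%. NT3 mouse 3 was the highest of its genotype in both limbs, 47.7 and 68.5 CPM, and in the loaded limbs the other 3 mice lay between 36.6 and 43.3 CPM. Averaged over both limbs, Art3 ran from 7.24 to 14.1 CPM in Ctrl and from 37.6 to 58.1 CPM in NT3 mice. For Cxcl16 the coefficients ran from 22.04% to 41.1% and counting alone from 22.8% to 27.0%. The biological coefficient of variation fitted by edgeR over the 16 libraries, with mouse as a block, was 16.2% for Zmynd15 and 24.5% for Cxcl16. Art3 lay between them, and the median over all rows was 21.6%. The block takes out differences between mice, so these coefficients describe spread between the limbs of a mouse, not between mice.

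The animal numbers of the mice fall into a lower and an upper range, and the lower range holds 3 Ctrl mice and 1 NT3 mouse, the upper 1 and 3. Within the lower range, the NT3 to Ctrl ratio of Zmynd15 was 3.94 without and 5.11 with loading, and within the upper range 3.38 and 2.54. For Art3 the ratios were 2.99 and 4.81 in the lower range and 3.97 and 11.04 in the upper range. Each of these ratios has a single mouse on one side, and since the rows were chosen on this contrast nothing is read from them.

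The genes around the pairs gave few usable rows. Of 9 listed neighbours of Cxcl16 within 103 kb, none passed the filter under its own name, among them Med11 at 0 to 7 fragments and Gltpd2 at 0 to 9. The rows opposite neighbours, Gm10418 (opposite Pld2) and Gm12316 (opposite Mink1), held 23 to 44 and 66 to 131 fragments, and neither was called in any comparison or had an edgeR p under 0.05 before adjustment. Around Cxcl10, the interferon-induced chemokine rows Cxcl9 and Cxcl11 held 0 to 4 and 0 to 6 fragments, and the row opposite Cxcl11, Gm2673, held 0 to 4. Of 10 rows with a neighbour's own name there, 1 passed the filter in the loading fits. This was Rchy1, for a ubiquitin ligase and 386 kb from the Cxcl10 start, with 3 to 13 fragments, and it was not called. Its loading effect in NT3 was a log2 fold change of -1.11 (SE 0.55, edgeR adjusted p = 0.651). No Art3 exon overlaps an exon of Cxcl9 or Cxcl11. The rows Gm43599 (opposite Sdad1), 4932430I15Rik (opposite Shroom3) and Thap6 (opposite Rchy1) were tested and not called. Sdad1 lies 38.4 kb from the Cxcl10 start, but Shroom3 and Rchy1 lie 335 and 386 kb away, so their opposite rows describe more distant genes. The largest genotype value among these opposite rows was that of 4932430I15Rik, a log2 fold change of -0.61 (edgeR adjusted p = 0.642) without loading and -0.75 (adjusted p = 0.113) with it.

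Rows named for other chemokine ligands held few fragments. Of 32 ligand rows, 2 passed the filter in the loading fits, Cxcl12 and Cxcl14, with 3 to 13 and 1 to 29 fragments, and neither was called by edgeR or DESeq2 or had a p under 0.05 before adjustment. None passed in the genotype fits. Of 3 rows opposite other ligands, Gm20743 (opposite Xcl1) was tested, at a genotype log2 fold change of 0.28 (edgeR adjusted p = 0.932) without loading and 0.43 (adjusted p = 0.690) with it. The shares of all rows called in the genotype comparisons were 0.579% in non-loaded and 2.65% in loaded limbs.

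More of the rows named for chemokine receptors passed the filter. Of 22, 7 passed the filter (5 in the fit of loaded limbs), and 0 were called by edgeR or DESeq2 in any of the 5 comparisons. Before adjustment, 546 of all 7192 rows had an edgeR p under 0.05 for loading in NT3. For genotype these counts were 486 of 6220 without and 808 of 6080 with loading. Among the receptor rows, 1 was under 0.05 in each of these 3 comparisons. These were Ackr4, a scavenging receptor, for loading in NT3, at a log2 fold change of -0.32 (SE 0.14, adjusted p = 0.624), and Cx3cr1, the fractalkine receptor of monocytes, for genotype, at 1.37 (SE 0.41, adjusted p = 0.195) without and 1.07 (SE 0.40, adjusted p = 0.178) with loading. The genotype values of the tested receptor rows had a log2 median of -0.011 without loading beside -0.012 over all rows, and 0.011 with loading beside -0.0016 over all rows. Cxcr6, the receptor of CXCL16, had 51 to 95 fragments in every limb. Its level was 84.0 ± 18.9 CPM in non-loaded and 73.6 ± 18.6 in loaded Ctrl limbs, and 84.0 ± 11.3 and 92.7 ± 12.7 in NT3 limbs (mean ± SD, n = 4), with the genotypes overlapping. The edgeR genotype log2 fold change of Cxcr6 was -0.01 (SE 0.20, adjusted p = 0.998) without and 0.34 (SE 0.20, adjusted p = 0.524) with loading. Its loading effects were -0.20 (adjusted p = 0.698) in Ctrl and 0.15 (adjusted p = 0.942) in NT3.

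The CXCL10 receptor row Cxcr3 held 0 or 1 fragment, and Ifng, for the interferon that induces CXCL10, held none in any library. Of the proteases that release CXCL16, Adam17 held 65 to 170 fragments and was not called, with genotype log2 fold changes of 0.16 (edgeR adjusted p = 0.915) and 0.00 (adjusted p = 0.999), and Adam10 held 0 to 10. The row of Dpp4, the protease that trims CXCL10, held 0 to 9.

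Interferon response rows were mostly not tested. Of 23 by their own name, 5 passed the filter in the loading fits. For loading in Ctrl 1 of these was called, against 4.07% of all rows. Usp18, which removes the interferon-induced modifier ISG15, fell by 0.66 on the log2 scale (SE 0.19, edgeR adjusted p = 0.0383), a call that DESeq2 did not make (adjusted p = 0.149). Its value in NT3 was 0.14 (adjusted p = 0.950). By the gene opposite, 1 of 6 tested rows was called, for genotype in loaded limbs, against 2.65% of all rows. Gm20496, opposite the immunoproteasome gene Psmb8, was higher in loaded NT3 limbs by 0.64 (SE 0.14, edgeR adjusted p = 0.00692). The median of the genotype values over the tested rows opposite interferon genes was 0.50 without and 0.41 with loading, beside -0.012 and -0.0016 over all rows. By their own name the 4 tested rows had medians of -0.063 and 0.22, on different sides of 0. Irf1, an interferon-induced transcription factor, was among them, with a genotype log2 fold change of -0.61 without loading (SE 0.24, edgeR adjusted p = 0.482). Psmb9, a list gene that also lies opposite Tap1, was in both sets, at 11 to 34 fragments. The list was chosen with earlier results of these data known, so these medians are a description and not a test.

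For the noncanonical NF-kB pathway, rows with a gene's own name and rows opposite such a gene were read separately. By their own name, 0 of 4 tested rows were called in the loading fits and 0 of 2 and of 1 in the genotype fits of non-loaded and loaded limbs. None of these rows had an edgeR p under 0.05 before adjustment, and DESeq2 called 0. Ltb, for a ligand of the lymphotoxin receptor, held 5 to 18 fragments. Nfkb2 held 8 to 22, with genotype values of 0.26 (edgeR adjusted p = 0.932) and 0.02 (adjusted p = 0.995). The row Psd, opposite Nfkb2, stood at 99.4 ± 20.7 and 96.6 ± 5.52 CPM in non-loaded and loaded Ctrl limbs and at 177 ± 14.3 and 220 ± 25.7 CPM in NT3 limbs (mean ± SD, n = 4). It was higher in NT3 by 0.81 (SE 0.18, edgeR adjusted p = 0.0193) without loading and by 1.18 (SE 0.15, adjusted p = 4.08e-06) with it. Gm16175, opposite the NF-kB cofactor gene Bcl3, was higher in loaded NT3 limbs by 1.45 (SE 0.30, adjusted p = 0.00336), and its value without loading was 0.54 (adjusted p = 0.773). Gm43109, opposite the adhesion molecule gene Vcam1, fell by 0.52 with loading in Ctrl (SE 0.13, edgeR adjusted p = 0.0102, DESeq2 adjusted p = 0.0724), with genotype values of -0.15 (adjusted p = 0.932) and 0.12 (adjusted p = 0.825). By the gene opposite, 1 of 3 rows was called higher without loading and 2 of 3 with it, against 0.579% and 2.65% of all rows called. The medians of the 3 rows were 0.54 and 1.18, beside -0.012 and -0.0016 over all rows. The list was chosen with earlier results of these data known, so this contrast is a description and not a test.

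Among 4113 rows with a mean of at least 20 fragments, the level most like Zmynd15 over the 16 libraries was that of D030025P21Rik, opposite Ltbp2, a gene for a matrix protein of the latent TGF-beta binding protein family. Its Pearson r was 0.97, and 0.61 for the deviations from the group means. Next came Psd (opposite Nfkb2), Tbc1d17 (opposite Akt1s1 and Il4i1), Rfc2 (opposite the B-cell adaptor gene Lat2) and Dexi (opposite Ciita, the master regulator of MHC class II genes), at 0.93, 0.93, 0.93 and 0.92. Their deviations within groups correlated less, at 0.33, 0.32, 0.46 and 0.30. The rows most like Art3 were Tesk1 (opposite the B-cell gene Cd72, r 0.93), Tbc1d17 (0.90), Dexi (0.89), Ms4a6c (opposite BE692007, 0.85) and 2010309G21Rik (opposite the immunoglobulin light chain gene Iglc3, 0.84). Their deviations correlated with those of Art3 at 0.45, 0.32, 0.08, 0.34 and 0.56. Zmynd15 and Art3 correlated at 0.81 over the libraries and at -0.11 within groups. The libraries share 2 genotypes and the limbs of a mouse, so these values are a description that rests on the step between genotypes.

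The rows opposite B-lymphoid genes were ordered across the groups like Art3. The 4 rows opposite B-lymphoid genes, Tesk1 (Cd72), Gm29439 (Cd22), and 5730488B01Rik and Gm12462 (both Pax5), summed to 204 to 385 CPM without loading and 166 to 220 CPM with it in Ctrl mice, and to 446 to 715 and 424 to 690 CPM in NT3 mice. The sum was lower in the loaded limb in 4 of 4 Ctrl mice and higher in 2 of 4 NT3 mice. With loading in Ctrl 3 of the 4 rows fell, against 4.07% of all rows called in either direction: Tesk1 by 0.64 (edgeR adjusted p = 0.0202), Gm29439 by 0.60 (adjusted p = 0.0288) and 5730488B01Rik by 0.85 (adjusted p = 0.0401) on the log2 scale, while Gm12462 had -0.33 (adjusted p = 0.575). DESeq2 called 0 of the 4 for loading in Ctrl, with adjusted p of 0.0832, 0.125 and 0.149 for the 3 rows. In NT3 none was called by edgeR, DESeq2 or at an unadjusted p under 0.05. For the difference in loading effect 0 of 4 were called by edgeR or DESeq2. The values were 0.56 to 0.79, with edgeR adjusted p of 0.285 to 0.695. Before adjustment all 4 were under 0.05 by edgeR, as were 472 of all 7192 rows tested. The list was chosen with earlier results of these data known, and 2 of the 4 rows lie opposite Pax5. Against Ctrl, 2 of 4 were higher in non-loaded and 4 of 4 in loaded NT3 limbs, against 0.579% and 2.65% of all rows called, Gm29439 by 1.12 (adjusted p = 0.0108) and 1.73 (adjusted p = 8.81e-08).

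The B-lymphoid genes' own rows did not follow that order. Cd72 rose by 0.61 with loading in Ctrl (edgeR adjusted p = 0.000934), where Tesk1 on its other strand fell, and it was higher in NT3 by 0.62 (adjusted p = 0.0460) without loading, with -0.06 (adjusted p = 0.917) in loaded limbs. The row of the B-cell receptor component Cd79a held 9 to 22 fragments. The 10 own-name rows of the B-lymphoid list summed to 218 to 246 CPM in non-loaded Ctrl and 298 to 367 in non-loaded NT3 limbs, which do not overlap, and to 286 to 383 and 306 to 345 CPM in loaded limbs, which do. Dexi, the row opposite Ciita on the dendritic cell list, ran from 53.6 to 96.7 CPM in Ctrl and from 170 to 239 CPM in NT3 limbs. It was called higher in NT3 in both limbs, by 1.27 without and 1.61 with loading, against 0.579% and 2.65% of all rows called. Dexi was the only row opposite a gene of that list, which was chosen with earlier results of these data known. By their own name the tested dendritic rows, 4 without and 3 with loading, had genotype medians of -0.22 and -0.19, and none was called. The part of B-lymphoid or dendritic cells in the Art3 and Zmynd15 values was not tested.

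Rows of other marker lists changed with loading in Ctrl too. Hcn3, opposite the red cell pyruvate kinase gene Pklr, fell by 1.04 (edgeR adjusted p = 0.00408, DESeq2 adjusted p = 0.0312). Gm11505, opposite the myeloperoxidase gene Mpo, fell by 0.75 (edgeR adjusted p = 0.0429, DESeq2 adjusted p = 0.0744). Alas2, for an enzyme of heme synthesis in red cells, rose by 0.54 (edgeR adjusted p = 0.0424, DESeq2 adjusted p = 0.144). None of these 3 was called for genotype.

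Among bone rows, Col1a1 rose with loading by 2.06 in Ctrl and 1.19 in NT3, and Col1a2, for the other chain of that collagen, by 1.79 in Ctrl with a value of 0.65 in NT3 (edgeR adjusted p = 0.105). Ibsp, for bone sialoprotein, and Dmp1 rose in Ctrl by 0.99 and 0.72. Of 4 tested osteocyte rows Dmp1 alone was called, and their median in Ctrl was 0.00071 beside -0.027 over all rows. In NT3 none was called, with -0.70 (edgeR adjusted p = 0.106) for Mepe, -0.91 (adjusted p = 0.625) for Sost and 0.59 (adjusted p = 0.167) for Dmp1. For genotype the 4 rows had medians of -0.53 without and -0.87 with loading, and none was called. The rows Abi3 (opposite Phospho1) and Prmt7 (opposite Smpd3), on the strand opposite phosphatase and sphingomyelinase genes of mineralization, rose by 2.44 and 2.67 in Ctrl and by 1.39 and 1.79 in NT3. By the test of the difference, the loading effect was lower in NT3 for Col1a2, Ibsp, Abi3 and Prmt7, whose edgeR adjusted p ran from 0.000161 to 0.0459, and DESeq2 called Ibsp and Abi3 of these. Abi3 was the one bone row called for genotype by edgeR, at -0.77 (adjusted p = 0.0261) in loaded limbs, where DESeq2 called Ibsp as well. The osteoblast row Spp1 had genotype values of 1.47 (edgeR adjusted p = 0.0829) without and 1.63 (adjusted p = 0.0599) with loading.

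The 7 osteoclast rows were too low for the filter, and their sum, not each row, separated the genotypes without loading, at 8.63 to 19.99 CPM in Ctrl and 20.3 to 44.8 in NT3, and overlapped with it, at 7.91 to 18.3 and 12.6 to 27.9 CPM. In non-loaded limbs Ctsk held 0 to 3 fragments in Ctrl and 1 to 18 in NT3, and Acp5 1 to 5 and 0 to 3. Their part in the member rows was not tested. The rows of macrophage, dendritic, T and natural killer, granulocyte, erythroid, endothelial, osteoblast, osteocyte and skeletal muscle genes, each list summed by own name, overlapped between genotypes in both limbs. The 10 macrophage rows summed to 168 to 193 CPM in non-loaded Ctrl and 183 to 203 in non-loaded NT3 limbs, and to 145 to 240 and 190 to 238 in loaded limbs. The 10 T and natural killer cell rows summed to 4.31 to 25.2 CPM in any limb, with 2 to 4 of them at 0 throughout a group. The 10 granulocyte rows ran from 51.7 to 151 CPM over all limbs. The 10 skeletal muscle rows ran from 72.4 to 312 CPM.

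**Figure D4:**
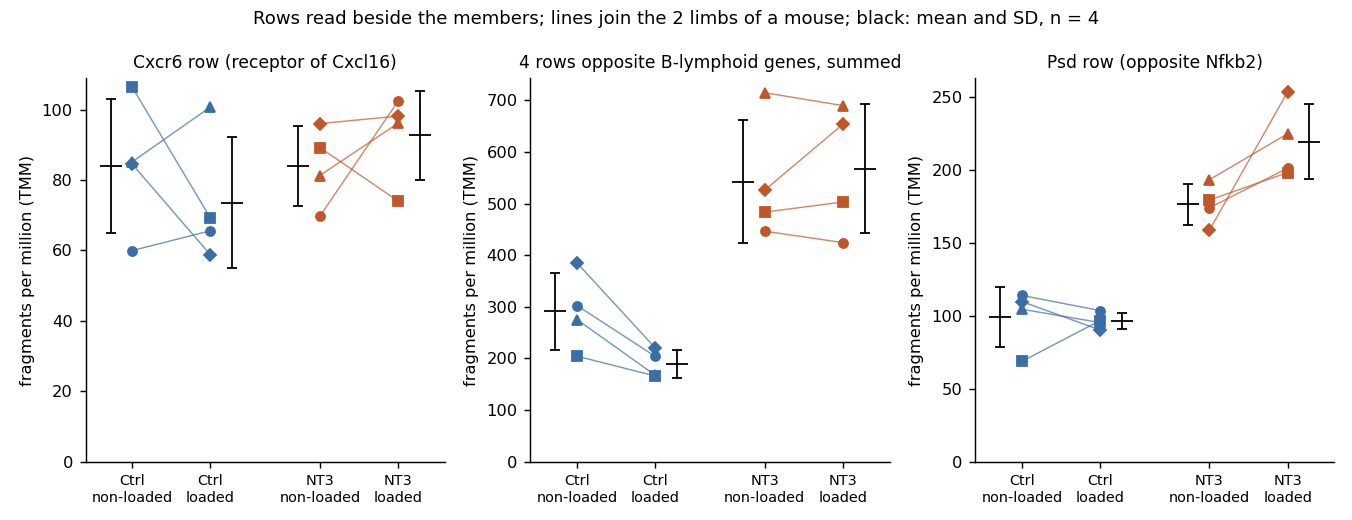
TMM-scaled CPM of the Cxcr6 row, of the 4 rows opposite B-lymphoid genes summed, and of the Psd row opposite Nfkb2, where lines join the limbs of a mouse and black bars give mean ± SD of 4 mice. Cxcr6 overlaps between the genotypes, whereas the B-lymphoid sum runs from 166 to 385 CPM in Ctrl and from 424 to 715 CPM in NT3 limbs and falls with loading in every Ctrl mouse.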

How the data were processed

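Total RNA depleted of ribosomal RNA was primed at random and sequenced single-end for 75 bases, at a mean RNA integrity number of 5.4, per the labels. Per the submitters' processing notes, STAR 2.4.2a aligned the reads to mm10 and featureCounts 1.4.6 counted them, and the authors deposited unnormalized counts per gene in 1 table per library. The annotation release and strand setting are not given in the sources used here. Rows were placed on GRCm38 with GENCODE M21 by symbol (45250 of 47517 matched), and a row was opposite a gene where their exons shared at least 20 bases.

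All rows were fitted with edgeR 4.0.16 (R 4.3.3, limma 3.58.1): filterByExpr at a minimum count of 10, TMM scaling, robust quasi-likelihood F tests, and Benjamini-Hochberg adjustment over all rows tested, with calls at an adjusted p under 0.05. Loading effects and their difference used 16 libraries with mouse as a block, and genotype effects 8 libraries of separate mice per limb. The design text names both limbs of each mouse, and deviations from the group means correlated at 0.045 to 0.178 between the limbs of a mouse (lowest in Ctrl mouse 4, whose non-loaded limb reached 0.157 with the loaded limb of another Ctrl mouse). Exact permutation tests, two-sided, compared 4 with 4 mice on log2(CPM + 1). DESeq2 1.42.0, other scaling and filters, no block, animal number and leaving out each mouse were alternatives. The scripts were tested on simulated data.

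The 4 rows and the gene lists were chosen with earlier results of these data known. The rows named were the 4 members, of each list the rows called in any of 5 comparisons, and the 5 rows most like Zmynd15 and Art3. Of lists without a call the rule gave the 2 rows with the highest mean count, of which some at low counts or on marker lists are not described. Marker rows and single genes named for their role were added. The lists held chemokine ligands and receptors, proteases, interferon and noncanonical NF-kB genes, neighbours, and markers of cell types. Of the neighbours listed, Glod4 lies 5661 kb from Cxcl16 and is not described.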

Additional observations from a re-analysis of the deposited data

Results flagged for a closer look

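Chance sets about 1 in 20 groups of 4 samples apart in this way, and 13 groups were examined. In non-loaded Ctrl limbs, the Art3 level of mouse 2, 22.2 CPM from 19 fragments, lay far from those of the other 3 mice, 10.2 to 11.9 CPM from 10 or 11 fragments. The gap to the nearest was 0.859 of the range of the group, above Dixon's 95% critical value for 4 samples. The loaded limb of that mouse held 6 fragments.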

How the results depend on the processing

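Loading results of Zmynd15, Art3 and Cxcl16 (112 values, with pseudocount and summed rows for the differences of Zmynd15 and Art3 alone) and their genotype values (72) were recomputed. The block was dropped for loading only, and animal number was a term for genotype only. No genotype value moved by as much as the SD between mice, although that of Cxcl16 without loading ran from -0.40 to 0.055 when a mouse was left out. Of the loading values, 108 kept their direction and side of the threshold. Leaving out a mouse gave ranges of -0.090 to 0.23 (Ctrl), 0.05 to 0.53 (NT3) and -0.067 to 0.43 (difference) for Zmynd15, and -1.71 to -0.72, -0.023 to 0.27 and 0.85 to 1.83 for Art3. The sign changed without Ctrl mouse 4, without NT3 mouse 4 and, for Art3 in NT3, without NT3 mouse 3. The cause was not tested.

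Counts of rows called moved more. Without the replicate block, 171 in place of 293 rows were called for loading in Ctrl, 5 in place of 30 in NT3 and 0 in place of 10 for the difference (335 at an unadjusted edgeR p under 0.05, and 10 calls by DESeq2 with the block), and no call of the 3 tested members changed. DESeq2 called 169 rows for loading in Ctrl and 19 in NT3, and total fragments in place of TMM 19 in NT3. Without a low-count filter, 17 rows were called for the difference and 71 in place of 36 for genotype in non-loaded limbs. Animal number as a term left 64 of 161 calls for genotype in loaded limbs. Leaving out a mouse gave 163 to 325 calls (lowest without Ctrl mouse 2, and 188 without Ctrl mouse 3), 17 to 44 (lowest without NT3 mouse 1), 7 to 14, 12 to 77 (77, 12 and 20 without Ctrl mice 1, 2 and 3, and 14 without NT3 mouse 3) and 119 to 201, in the order loading in Ctrl, loading in NT3, difference, and genotype without and with loading. Cxcl10 gave a value only without the filter. Under DESeq2 the adjusted p was NA for Art3 and Cxcl16 in NT3 and for their difference. The sum of the Zmynd15 and Cxcl16 rows gave a difference in loading effect of 0.16 (exact permutation p = 0.629), and a pseudocount of 5 gave 0.84 (p = 0.0857) for Art3. With 2 to 19 fragments of Art3 in Ctrl limbs and 0 to 5 of Cxcl10, depth limits both rows.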
